A study of Homo sapiens
Mus musculus and Homo sapiens with 21 samples.

Results

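The genes examined here encode subunits of the receptors for glutamate, GABA and glycine, the main fast transmitters of the brain, and were measured in the host tissue of mice that carried human lung cancer cells. They comprise 36 mouse genes, taken by symbol from the mouse gene table of the series: 4 for AMPA receptors, 5 for kainate receptors, 6 for NMDA receptors, 6 for metabotropic glutamate receptors, 11 for GABA-A receptors and 4 for glycine receptors. All 36 were found among the 33043 genes of the table. All 36 also passed the filter on low values, a rescaled level of at least 1 in at least 3 of the 14 brain libraries, which 15777 genes passed.

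The study injected H2030-BrM3, a brain-seeking derivative of a human lung adenocarcinoma line, into athymic nu/nu mice (mutants without mature T cells) that were 5 to 6 weeks old. Mouse transcripts were read in forebrain with tumours (FBMet, 3 libraries), forebrain without tumours (FB, 4), hindbrain with tumours (HBMet, 3) and hindbrain without tumours (HB, 4). The strain and the cell line are the same in the labels of all 4 brain groups, and the labels do not say whether mice of the tumour-free groups had been injected, nor which libraries came from 1 animal. Subcutaneous tumours (SQ, 4 libraries) and a monolayer culture of the same cells (2D, 3 libraries) served only as background for mouse values. Tumours were cut out by eye together with surrounding tissue, so each value is the average of a mixed piece, and fewer cells of a type cannot be told apart from less RNA per cell. The libraries within a group are taken as replicates, and their p-values measure the spread between these libraries, whatever its source.

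AMPA and kainate receptors are assembled from 4 subunits and pass fast excitatory current, and the GluA2 subunit, encoded by Gria2, makes AMPA channels largely impermeable to calcium. NMDA receptors need the obligatory GluN1 subunit of Grin1 together with GluN2 subunits, whose GluN2B form (Grin2b) dominates in young and forebrain circuits while GluN2C (Grin2c) is typical of cerebellar granule cells and of some astrocytes. Metabotropic glutamate receptors signal through G proteins. GABA-A and glycine receptors are chloride channels that inhibit the adult neuron, and glycine receptors carry much of the inhibition of the brainstem and spinal cord.

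Reads recovered from the steps in the deposited values put the mouse depth at 54450464 to 71916542 reads in FBMet, 17747168 to 20432889 in FB, 52358110 to 86139422 in HBMet and 19338011 to 23034774 in HB. Every tumour-bearing library was thus deeper than every tumour-free library, so tumour and depth cannot be told apart in the tumour comparisons. No member had fewer than 56 reads in any brain library. Human reads were 4.83 to 7.12% of FBMet libraries and 5.49 to 7.52% of HBMet libraries. Applied to the human reads of tumour-bearing libraries, the rate of reads assigned to a member in the human monolayer came to at most 0.0781% of that member's reads, for Grik4 in HBMet. Levels below are RPKM (reads divided by transcript length and by the reads mapped) that were rescaled to a sum of 1000000 per library, listed in replicate order. Differences are log2 changes of the rescaled RPKM plus 1, with their standard error, so changes of low genes are understated. A gene is called where limma's p, adjusted over the 15777 genes, is under 0.05.

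The labelled regions carried their markers. Tbr1, a gene of forebrain excitatory neurons, lay at 97.3 to 132 rescaled RPKM in FBMet and 83.8 to 122 in FB, while Hoxb5, a hindbrain patterning gene, lay at 9.34 to 14.9 in HBMet and 11.8 to 25.8 in HB and at no more than 0.0325 in any forebrain library. The pieces were not alike in content, however. The hypothalamic peptide gene Pmch was at 0.301 to 0.716 in FBMet against 59.6 to 78.5 in FB, and Hcrt, another, was listed at 0 in FBMet and lay at 11.9 to 16.3 in FB. In hindbrain Tbr1 measured 0.325, 0.601 and 0.311 in HBMet against 0.404, 9.88, 13.4 and 6.51 in HB. The summed level of 9 forebrain neuron markers, Tbr1 among them, did not follow that order. It was 118 to 143 in HBMet and 134, 136, 127 and 161 in HB. These values are set beside the receptor results below.

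Region separated the receptor genes more than tumours did. Between tumour-bearing regions (FBMet against HBMet) 28 of the 36 genes were called, 18 higher and 10 lower in FBMet, where 48.4% of all genes tested were called (17.8% higher and 30.7% lower). Between tumour-free regions (FB against HB) 28 were also called, 18 higher and 10 lower in FB, beside 52.8% of all genes (20.2% higher and 32.5% lower). The median change of the 36 genes was 0.33 between tumour-bearing regions and 0.28 between tumour-free regions, against -0.11 and -0.09 over all genes. With a scaling by the median of ratios in place of the sum, the median over all genes between tumour-bearing regions was -0.0038 in place of -0.11, and the median of the members became 0.43. That scaling also changed the split of calls over all genes, to 3712 higher and 3534 lower between tumour-bearing regions (2805 and 4838 with the sum) and to 4220 higher and 4037 lower between tumour-free regions (3194 and 5133 with the sum), while the members' calls became 19 higher and 8 lower, and 20 higher and 9 lower.

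Both region comparisons use separate libraries. Of the 36 genes, 27 were called in both in the same direction (17 higher and 10 lower in forebrain), which is 96.4% of the calls of either comparison. Over all genes tested the genes called in both in the same direction were 76.3% of the tumour-bearing calls and 70.1% of the tumour-free calls. Of the members, 1 was called only between tumour-free regions, 1 only between tumour-bearing regions, 7 in neither, and 33 (91.7%) had the same sign in both, as did 79.8% of all genes. The libraries of the 2 groups did not overlap for 28 of the 36 between FBMet and HBMet, beside 61.3% of all genes, and for 26 between FB and HB, beside 44.8%. The 1 called only in tumour-free brain was Glra2 and the 1 called only in tumour-bearing brain was Grik3.

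**Figure D1:**
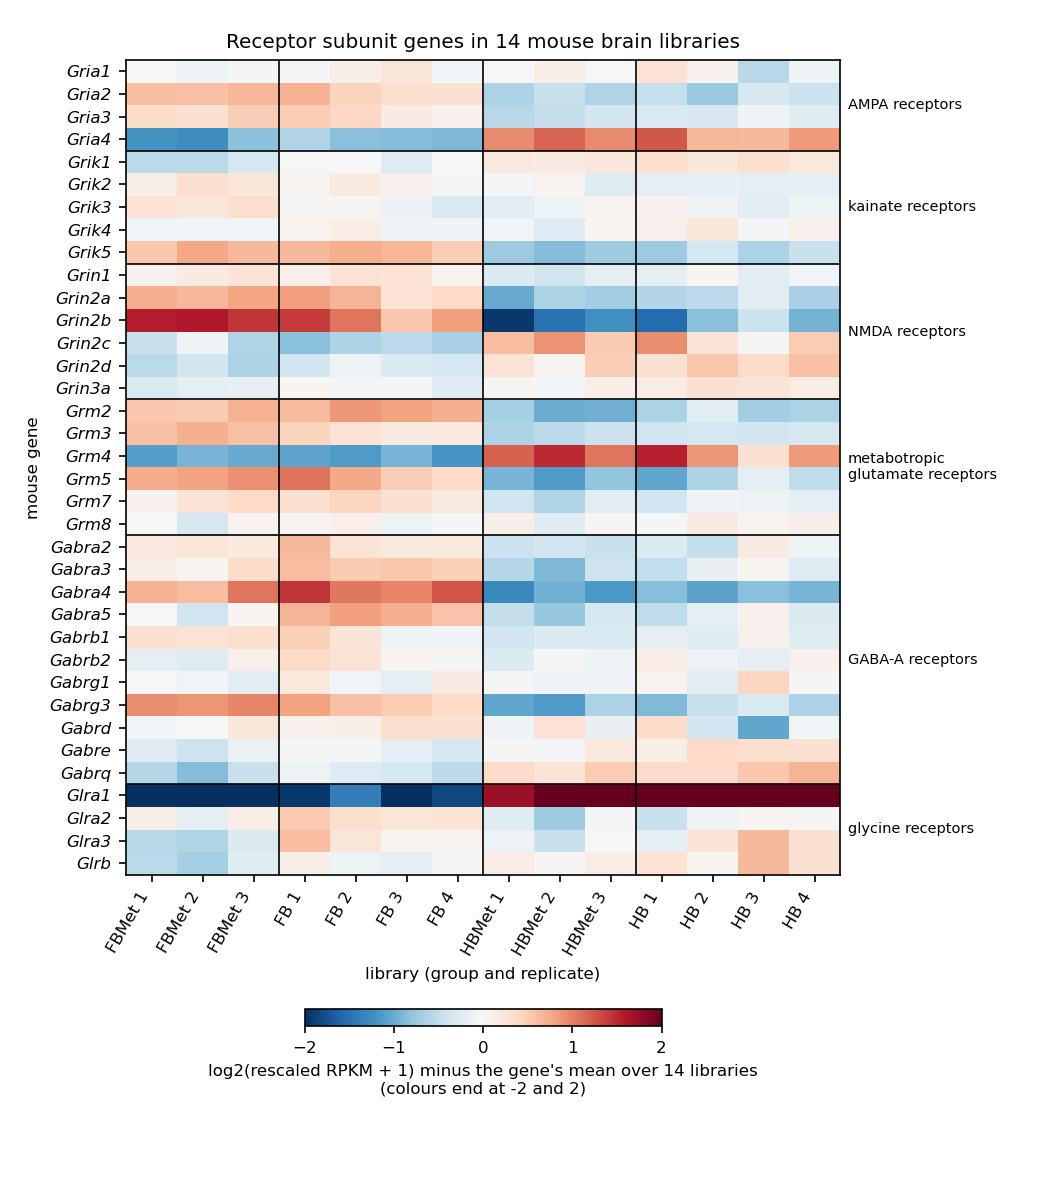
Each row is 1 of the 36 receptor subunit genes, grouped by receptor class, and each column is 1 of the 14 brain libraries. Colour gives log2(rescaled RPKM + 1) minus the gene's mean over the 14 libraries, and the colours end at -2 and 2. Glra1, Gria4 and Grm4 are blue in forebrain and red in hindbrain libraries, and Gabra4, Grin2b and Grm5 show the opposite pattern.

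Tumours went with fewer calls. In forebrain, 9 of the 36 genes were called between FBMet and FB, 2 higher (Grik3 and Grm3) and 7 lower (Grik1, Gabra3, Gabra4, Gabra5, Glra1, Glra3 and Glrb), a share of 25.0% beside 30.4% of all genes (14.4% higher and 16.0% lower). By class, 3 of 4 glycine receptor genes and 3 of 11 GABA-A receptor genes fell, 1 of 5 kainate receptor genes was higher and 1 lower, 1 of 6 metabotropic glutamate receptor genes was higher, and none of the 4 AMPA or 6 NMDA receptor genes was called. The difference between classes was not tested. The median change over the 36 was -0.12, against -0.03 over all genes, and by class it was -0.59 for glycine receptors, -0.16 for GABA-A receptors, 0.08 for NMDA receptors, 0.02 for kainate receptors, 0.0041 for metabotropic glutamate receptors and -0.01 for AMPA receptors. Without FBMet replicate 2, 5 of the 36 and 2353 of all genes were called, against 4793 with it, and the falls were then 1 of 4 glycine and 1 of 11 GABA-A receptor genes. With library weights 15 of the 36 were called, among them the AMPA receptor gene Gria4 and the NMDA receptor gene Grin3a, both lower, and the NMDA receptor gene Grin2b, which was higher. FBMet and FB libraries did not overlap for 11 of the 36, beside 37.9% of all genes, among them the uncalled Grin2b, Gabrg3 and Glra2.

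In hindbrain, limma called 0 of the 36 genes between HBMet and HB, beside 3.25% of all genes (2.92% higher and 0.33% lower), and voom on the recovered reads also called 0. At an unadjusted p under 0.05, 9 of the 36 were lower and 0 higher in HBMet, a share of 25.0%. All genes had 14.9%, which counts both directions together. A negative change was seen in 30 of the 36 (and in 8523 of all 15777 genes), and the median was -0.19 against -0.01 over all genes. Without HB replicate 1, 3 members were called, Gabra3 and Grin2b lower and Grm4 higher in HBMet, and 804 genes in all against 512 with it. Without HBMet replicate 1 or 2, 324 and 291 genes were called. HBMet and HB libraries did not overlap for 4 of the 36, beside 12.8% of all genes. With the tumour-bearing libraries of the same number as pairs, 1 member was called, Gabra3, at -0.42 and an adjusted p of 0.0454.

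**Figure D2:**
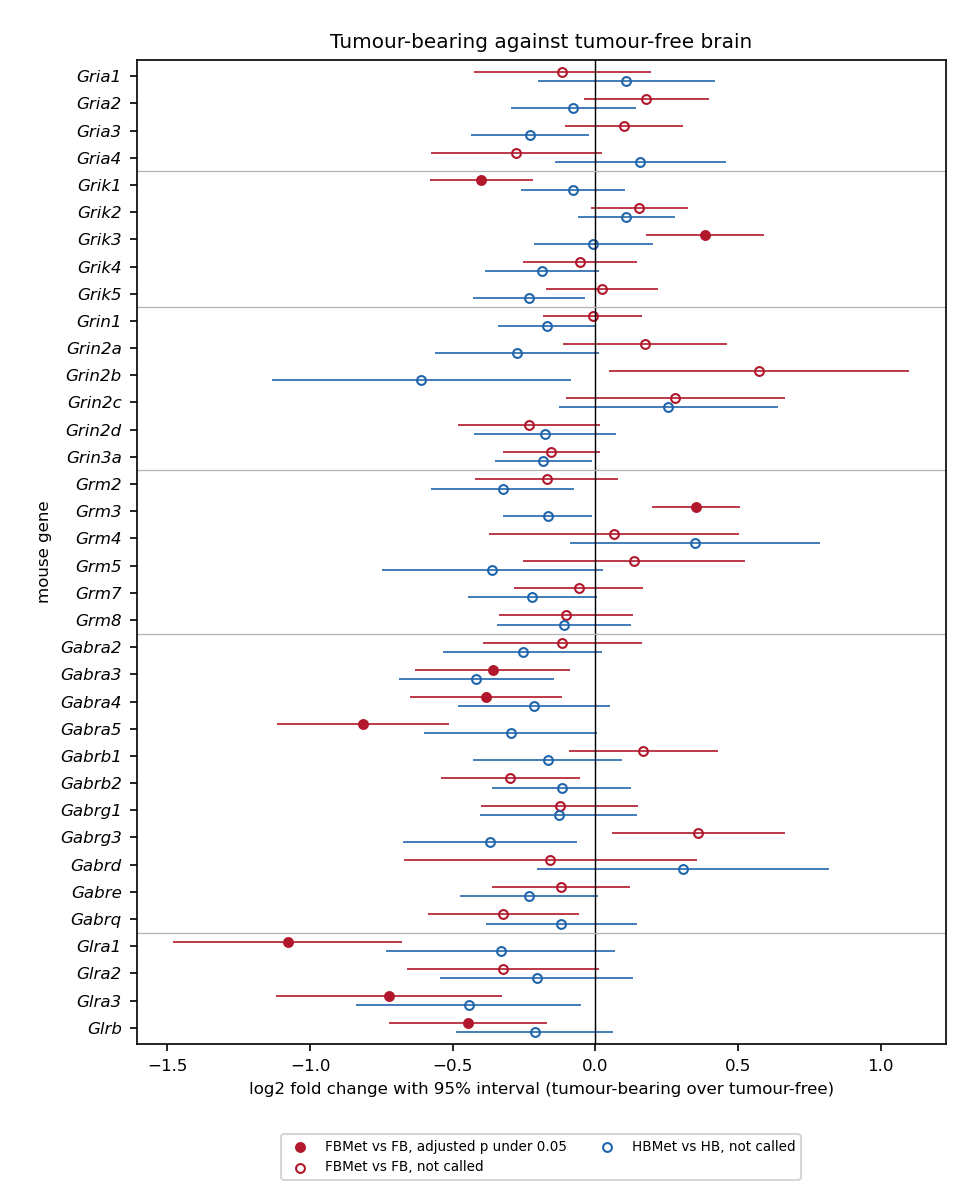
Points are log2 changes of the 36 genes in FBMet over FB (red) and HBMet over HB (blue), with 95% intervals from limma as bars, filled where the adjusted p is under 0.05. The 9 filled points all belong to the forebrain comparison, from Glra1 at -1.08 to Grik3 at 0.38, and no hindbrain point is filled.

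Among AMPA receptor genes the forebrain libraries were rich in Gria2 and the hindbrain libraries in Gria4, in tumour-bearing and tumour-free tissue alike. Gria2, for the subunit that limits calcium entry, measured 208, 206 and 218 in FBMet against 221, 186, 172 and 169.8 in FB. In hindbrain it measured 87.3, 100.0 and 89.3 in HBMet against 99.2, 81.3, 109 and 102 in HB. All forebrain libraries lay above all hindbrain libraries, and tumour-bearing and tumour-free libraries overlapped within each region. The log2 difference was 1.19 ± 0.11 (SE, adjusted p = 5.56e-07) between FBMet and HBMet and 0.93 ± 0.095 (SE, adjusted p = 1.33e-06) between FB and HB, while neither tumour comparison was called, with 0.18 ± 0.103 for FBMet over FB and -0.08 ± 0.103 for HBMet over HB. Without FB replicate 1, the FB library with the highest Gria2, the forebrain tumour difference passed at 0.26 with an adjusted p of 0.0478.

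Gria4 encodes GluA4, a subunit with fast kinetics found in cerebellar and brainstem neurons. It stood at 22.96, 22.2 and 30.1 in FBMet against 34.98, 29.5, 28.9 and 28.3 in FB rescaled RPKM. The hindbrain levels were 104, 121 and 104 in HBMet against 129, 86.00, 84.7 and 98.1 in HB. Hindbrain libraries were all far above forebrain libraries, with no overlap, and the tumour-bearing and tumour-free libraries of a region overlapped. The log2 difference was -2.09 ± 0.15 (SE, adjusted p = 4.15e-08) between FBMet and HBMet and -1.66 ± 0.13 (SE, adjusted p = 8.83e-08) between FB and HB. The forebrain tumour difference of -0.28 ± 0.14 was not called (adjusted p = 0.149), but was called without FBMet replicate 3, with an adjusted p of 0.0480, and with library weights (adjusted p = 0.0332).

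The make-up of the AMPA class, as the share of each gene in the summed rescaled RPKM, moved with region. Gria2 made up 50.3 to 51.4% of the sum in FBMet, 43.6 to 49.9% in FB, 25.6 to 26.1% in HBMet and 24.2 to 33.9% in HB. Gria4 made up 5.52 to 6.94% in FBMet, 7.21 to 7.88% in FB, 29.9 to 31.6% in HBMet and 25.99 to 31.4% in HB. Gria3 (GluA3) was also higher in forebrain, by 0.86 ± 0.104 between FBMet and HBMet and 0.53 ± 0.09 between FB and HB. Gria1 (GluA1), a major subunit of plastic excitatory synapses, was not called between regions: its levels spanned 106 to 114 in FBMet, 109 to 135 in FB, 114 to 125 in HBMet and 77.3 to 139.9 in HB.

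**Figure D3:**
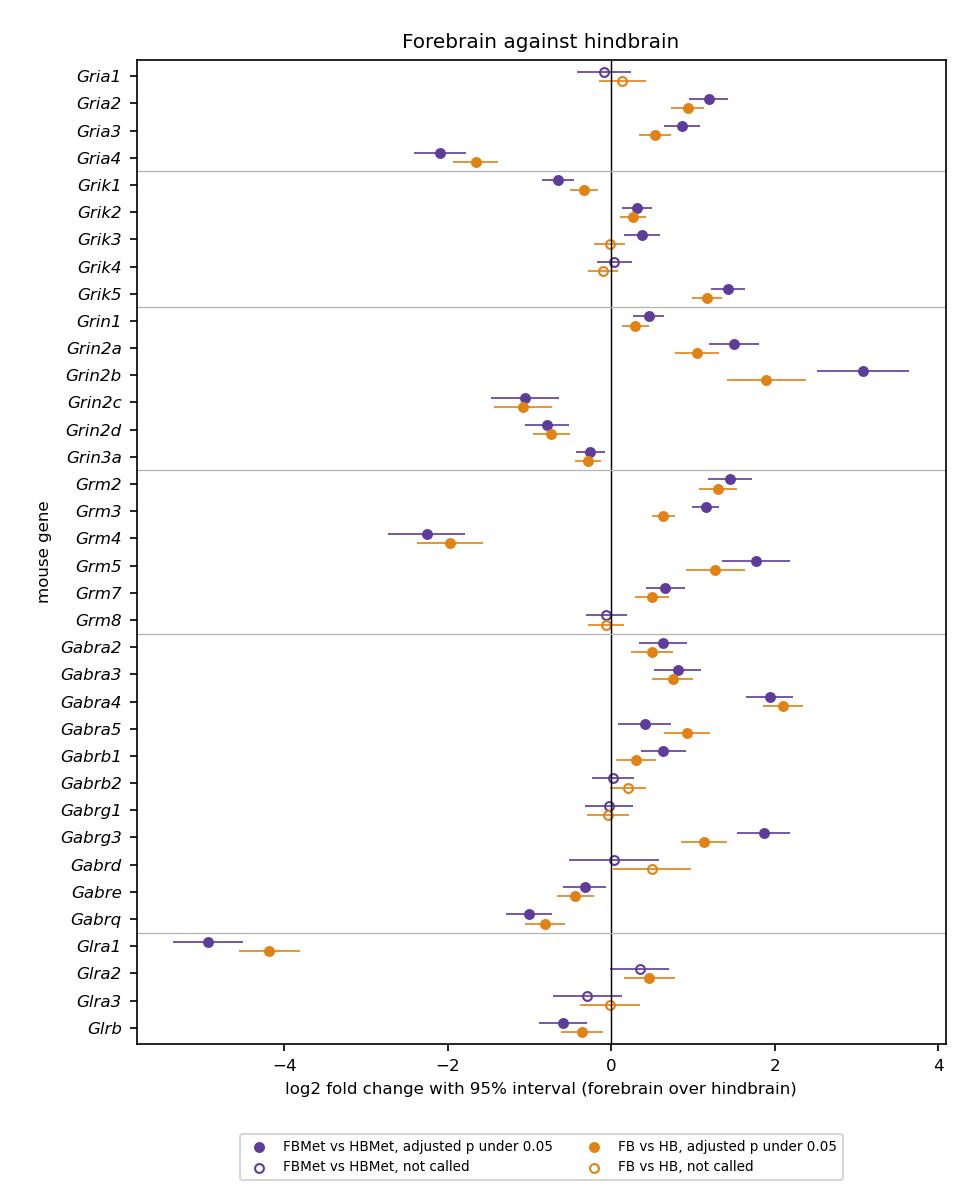
Points are log2 changes of the 36 genes in FBMet over HBMet (purple) and FB over HB (orange), with 95% intervals from limma as bars, filled where the adjusted p is under 0.05. In both comparisons Glra1 lies farthest to the left, at -4.93 and -4.18. Grin2b lies farthest to the right between tumour-bearing regions, at 3.08, and Gabra4 between tumour-free regions, at 2.10.

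Of the 5 kainate receptor genes, 2 changed in opposite directions in tumour-bearing forebrain, with Grik3 (GluK3) higher and Grik1 (GluK1) lower. Grik3 measured 20.7, 19.7 and 21.4 in FBMet against 16.9, 16.97, 15.2 and 13.3 in FB, and 14.3, 15.5 and 17.6 in HBMet against 17.8, 15.8, 14.3 and 15.5 in HB. All 3 FBMet libraries were above all FB libraries, and the hindbrain groups overlapped. The change was 0.38 ± 0.097 (SE, adjusted p = 0.00933) in forebrain and -0.01 ± 0.097 in hindbrain. Between regions Grik3 was called only with tumours, at 0.37 ± 0.104 (SE, adjusted p = 0.00853) between FBMet and HBMet, against -0.02 ± 0.09 between FB and HB.

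Grik1 measured 6.296, 6.27 and 7.52 in FBMet against 9.59, 9.58, 7.88 and 9.57 in FB, and 11.1, 10.9 and 11.4 in HBMet against 12.3, 11.4, 12.2 and 11.2 in HB. The FBMet libraries were the 3 lowest of all, and 3 FB libraries lay close together with replicate 3 below them. The change in forebrain was -0.400 ± 0.08 (SE, adjusted p = 0.00366), and HBMet differed from HB by -0.08 ± 0.08. Grik1 was lower in forebrain than in hindbrain, by -0.66 between FBMet and HBMet and -0.34 between FB and HB, both called. Grik5 (GluK5), a subunit that forms channels only together with others, went the other way, at 1.42 ± 0.098 and 1.17 ± 0.08 in the same comparisons, and Grik2 (GluK2), the widely expressed pore subunit, at 0.31 ± 0.09 and 0.26 ± 0.07. Grik4 (GluK4) was called in no comparison and spanned 7.33 to 7.39 in FBMet, 7.04 to 8.46 in FB, 6.26 to 8.005 in HBMet and 7.54 to 9.27 in HB.

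All 6 NMDA receptor genes differed between regions, 3 in each direction, in tumour-bearing and in tumour-free brain. Grin1, whose product is part of every NMDA receptor, measured 142, 151 and 161 in FBMet against 143, 163, 163 and 141 in FB. The hindbrain libraries held 110.1, 103 and 117 in HBMet against 117, 136, 114 and 128 in HB. Forebrain levels were moderately above hindbrain levels with no overlap, and within a region the tumour-bearing and tumour-free libraries overlapped. FBMet exceeded HBMet by 0.45 ± 0.09 (SE, adjusted p = 5.36e-04) and FB exceeded HB by 0.29 ± 0.07 (SE, adjusted p = 0.00419). FBMet against FB gave -0.01 ± 0.08 and HBMet against HB -0.17 ± 0.08, neither called, and the sign of the value near 0 in forebrain turned under some settings.

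Grin2b, for GluN2B, was the member farthest above its hindbrain level between the tumour-bearing regions. Its rescaled RPKM was 1172, 1192 and 1059.6 in FBMet against 1037, 831, 573 and 695 in FB. In hindbrain it was 103, 139 and 169 in HBMet against 134, 221, 293 and 203 in HB. Every forebrain library was above every hindbrain library, the 3 FBMet libraries were all above the 4 FB libraries, and HBMet libraries overlapped the lowest HB library. FBMet exceeded HBMet by 3.08 ± 0.26 (SE, adjusted p = 4.31e-07) and FB exceeded HB by 1.895 ± 0.23 (SE, adjusted p = 9.78e-06). The tumour differences missed the threshold, with 0.57 ± 0.24 (SE, adjusted p = 0.0911) for FBMet over FB and -0.61 ± 0.24 (SE, adjusted p = 0.253) for HBMet over HB.

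Single libraries decided on which side of the threshold the tumour differences of Grin2b fell. FBMet against FB was called without FB replicate 1 or HB replicate 1, with an adjusted p of 0.0411 to 0.0464, and also with library weights and in a fit of only the groups compared (adjusted p 0.0354 to 0.0363). HBMet against HB was called without HB replicate 1, at -0.81 with an adjusted p of 0.0486. The HB libraries also differed in Tbr1, 1 of 9 markers of forebrain neurons. The 3 HBMet libraries and HB replicate 1 had it at 0.311 to 0.601. HB replicates 2 to 4, which held the higher Grin2b levels, had it at 6.505 to 13.4. The summed level of the 9 markers did not follow that order. It was 134, 136, 127 and 161 in HB replicates 1 to 4, and 118 to 143 in HBMet. The part of forebrain tissue in the Grin2b values was not tested. The length implied by the reads behind each value was 703 bases for Grin2b and 880 for Grik5, against a median of 3126 for the 36 genes, and which part of these transcripts was counted is not given in the sources used here. Levels of these 2 genes relative to others rest on that length, and comparisons of the same gene between libraries do not.

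Grin2c, for GluN2C, showed the mirror image. It measured 13.5, 17.8 and 11.98 in FBMet against 10.1, 11.8, 12.8 and 11.6 in FB rescaled RPKM. Its hindbrain levels were 29.3, 35.8 and 27.5 in HBMet against 36.5, 22.5, 19.1 and 26.97 in HB. All hindbrain libraries were above all forebrain libraries, and tumour-bearing libraries overlapped tumour-free libraries in both regions. FBMet was below HBMet by -1.06 ± 0.19 (SE, adjusted p = 3.78e-04) and FB below HB by -1.08 ± 0.17 (SE, adjusted p = 7.66e-05). Neither tumour comparison was called, with 0.28 ± 0.18 for FBMet over FB and 0.26 ± 0.18 for HBMet over HB.

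Among the 4 GluN2 genes, Grin2c made up 1.05 to 1.39% of the summed rescaled RPKM in FBMet, 0.899 to 2.002% in FB, 11.95 to 18.4% in HBMet and 5.400 to 17.8% in HB. Grin2b made up 92.7 to 93.5%, 89.8 to 92.4%, 64.4 to 73.4% and 65.6 to 82.7% in the same order of groups. The shares of both genes rest on the short length implied for Grin2b, since its level enters the sum. Grin2a (GluN2A), the subunit that gains weight as synapses mature, was higher in forebrain by 1.497 ± 0.14 between FBMet and HBMet and 1.05 ± 0.12 between FB and HB. Grin2d (GluN2D) was lower in forebrain by -0.79 ± 0.12 and -0.73 ± 0.11, and Grin3a (GluN3A), which dampens NMDA receptor current, by -0.26 ± 0.08 and -0.29 ± 0.07. The call of Grin3a between FBMet and HBMet was lost without FBMet replicate 1 or HBMet replicate 3 (adjusted p 0.0831 to 0.0911) and with the scaling by the median of ratios and with quantile normalization (adjusted p 0.113 to 0.163).

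**Figure D4:**
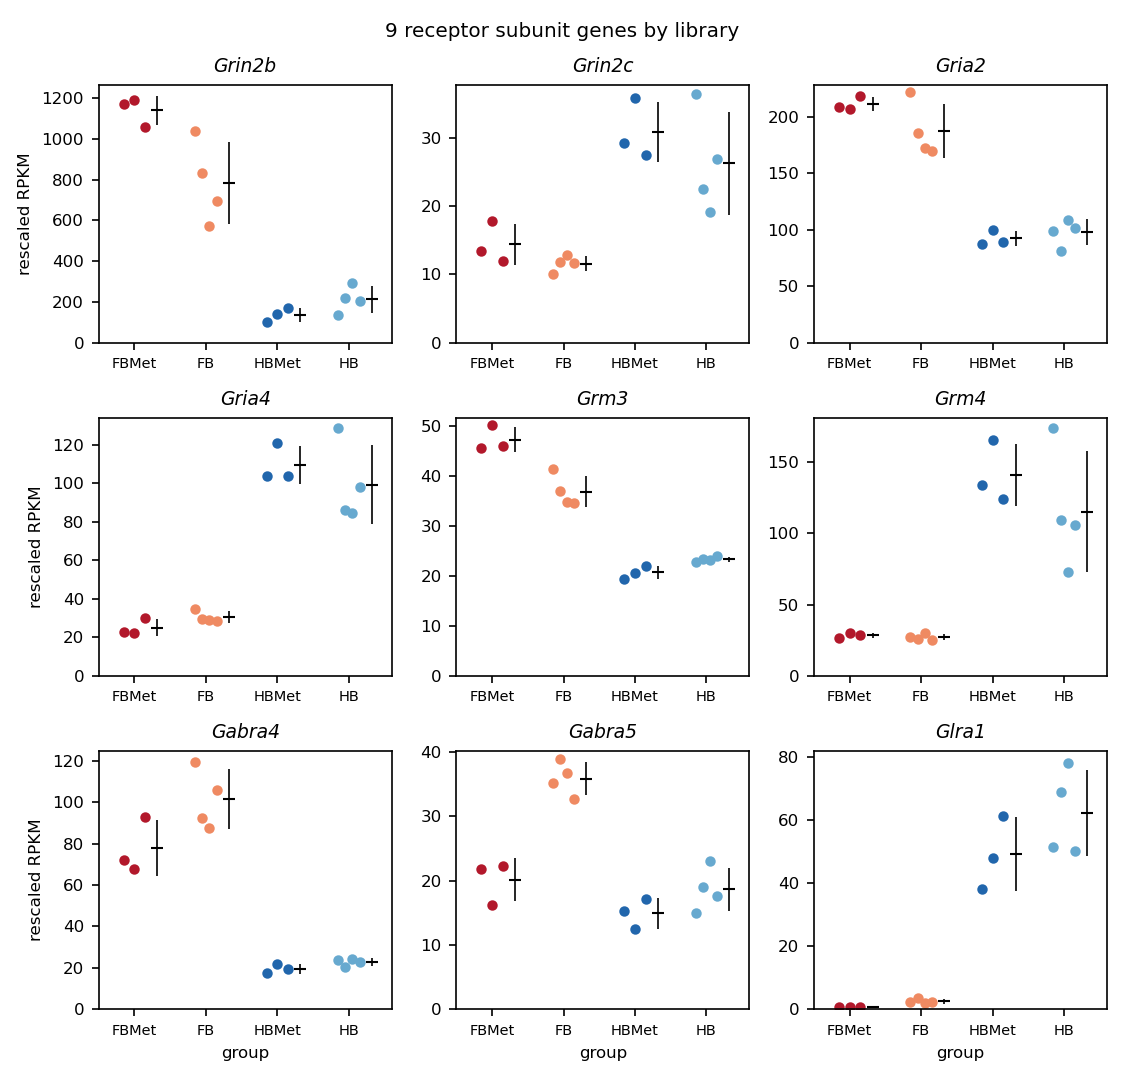
Each panel is 1 gene and each coloured point is 1 library, on a linear axis of rescaled RPKM that starts at 0, with the black bar giving the mean and SD of the group. Glra1 stays at 0.517 to 0.754 in FBMet and 1.89 to 3.55 in FB but at 38.3 to 78.2 in hindbrain libraries, and Grm3 is the gene whose FBMet points lie above FB while HBMet points lie below HB.

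Of the metabotropic glutamate receptor genes, Grm3 was the 1 member whose change with tumour differed between the regions. Grm3 encodes mGlu3, a Gi-coupled receptor present on astrocytes as well as neurons. It measured 45.6, 50.1 and 45.97 in FBMet against 41.4, 36.9, 34.7 and 34.5 in FB rescaled RPKM. Hindbrain libraries gave 19.4, 20.6 and 22.05 in HBMet against 22.8, 23.4, 23.2 and 23.9 in HB. FBMet libraries were all above FB libraries, and HBMet libraries were all below HB libraries.

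The change of Grm3 was 0.35 ± 0.07 (SE, adjusted p = 0.00310) for FBMet over FB and -0.17 ± 0.07 (SE, adjusted p = 0.293) for HBMet over HB. The difference between these changes was 0.52 ± 0.103 (SE, adjusted p = 0.0427), and among all genes 0.456% were called for such a difference (0.254% higher and 0.203% lower). That call was lost with no filter on low values, with the replicate number as a block and with the tumour-bearing pairs as a block (adjusted p 0.0576 to 0.0871) and without FB replicates 2, 3 and 4, FBMet replicates 1 and 2, HB replicates 2, 3 and 4 or HBMet replicates 1, 2 and 3 (adjusted p 0.0555 to 0.178). Without HB replicate 1 the difference was called in 3 members, Grm3, Grin2b and Gabrg3, and with library weights in those 3 and Grik1. The forebrain change itself kept its call when any 1 library was left out. The summed level of 7 astrocyte markers was 2306 to 3171 in FBMet against 1802 to 2391 in FB. Of the 7, 3 were called higher there, beside 14.4% of all genes. The sum was 4681 to 5425 in HBMet against 4041 to 4613 in HB, with 1 of the 7 called higher, beside 2.92% of all genes. The part of these markers in the Grm3 values was not tested.

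Grm4, for mGlu4, a presynaptic receptor abundant in cerebellar granule cells, was the metabotropic gene of the hindbrain. It measured 26.6, 30.3 and 28.6 in FBMet against 27.5, 25.96, 30.02 and 25.2 in FB. Hindbrain tissue gave 134, 166 and 124 in HBMet against 174, 109, 72.6 and 106 in HB. No forebrain library came near the lowest hindbrain library, and HB replicates ranged more widely than any other group. FBMet was below HBMet by -2.26 ± 0.22 (SE, adjusted p = 1.29e-06), FB below HB by -1.98 ± 0.19 (SE, adjusted p = 9.87e-07), and HBMet against HB gave 0.35 ± 0.204, which was called at 0.57 without HB replicate 1 (adjusted p = 0.0317).

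Grm5 and Grm2 marked the forebrain instead. Grm5, for the Gq-coupled mGlu5 receptor, measured 119.8, 125 and 135 in FBMet against 152, 121, 100.2 and 94.5 in FB, and 37.1, 32.04 and 40.7 in HBMet against 34.1, 46.1, 62.6 and 49.7 in HB. Grm2, for the presynaptic mGlu2 receptor, measured 24.1, 23.6 and 26.9 in FBMet against 25.8, 30.5, 28.9 and 27.3 in FB, and 9.89, 7.69 and 7.86 in HBMet against 10.1, 13.95, 9.62 and 10.1 in HB. Both genes were higher in every forebrain library than in any hindbrain library, and their tumour-bearing and tumour-free libraries overlapped within each region. Grm5 differed by 1.77 ± 0.19 (SE, adjusted p = 3.80e-06) between FBMet and HBMet and 1.27 ± 0.17 (SE, adjusted p = 2.03e-05) between FB and HB, and Grm2 by 1.45 ± 0.13 (SE, adjusted p = 2.64e-07) and 1.299 ± 0.11 (SE, adjusted p = 1.68e-07). Grm7 (mGlu7) was higher in forebrain by 0.66 ± 0.11 and 0.496 ± 0.098, and Grm8 (mGlu8) was called in no comparison, with levels between 6.49 and 9.67 over the 14 libraries.

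Among the 11 GABA-A receptor genes, those for alpha subunits accounted for the 3 that fell in tumour-bearing forebrain. Gabra5, for the alpha5 subunit of extrasynaptic receptors typical of hippocampus, measured 21.8, 16.3 and 22.4 in FBMet against 35.2, 38.9, 36.7 and 32.8 in FB rescaled RPKM. In hindbrain it measured 15.2, 12.4 and 17.2 in HBMet against 14.9, 18.9, 23.1 and 17.7 in HB. The FBMet libraries lay well below the FB libraries and next to the hindbrain libraries, and the hindbrain groups overlapped. The change was -0.81 ± 0.14 (SE, adjusted p = 0.00110) for FBMet over FB and -0.297 ± 0.14 (SE, adjusted p = 0.342) for HBMet over HB. Gabra5 kept its forebrain tumour call under all alternatives run, while its regional difference, 0.92 ± 0.13 (SE, adjusted p = 3.45e-05) between FB and HB, was 0.41 ± 0.15 (SE, adjusted p = 0.0379) between FBMet and HBMet, where the groups overlapped and the call was lost without FBMet replicates 1 and 3 or HBMet replicates 1 and 2 (adjusted p 0.0665 to 0.165) and with no filter on low values (adjusted p = 0.0821).

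Gabra4, for the alpha4 subunit of tonic inhibition in thalamus, striatum and dentate gyrus, had the widest regional gap of the class. It measured 72.1, 67.9 and 93.1 in FBMet against 119.7, 92.5, 87.4 and 106 in FB. The hindbrain libraries held 17.3, 22.00 and 19.2 in HBMet against 23.8, 20.4, 24.3 and 22.5 in HB. Forebrain libraries were all far above hindbrain libraries, and FBMet replicate 3 reached into the FB range. FBMet exceeded HBMet by 1.93 ± 0.13 (SE, adjusted p = 2.69e-08) and FB exceeded HB by 2.101 ± 0.11 (SE, adjusted p = 2.49e-09). The fall in FBMet against FB, -0.38 ± 0.12 (SE, adjusted p = 0.0309), was lost without FB replicates 1 and 4 or FBMet replicates 1 and 2 (adjusted p 0.0737 to 0.161) and with no filter on low values, with quantile normalization and with the replicate number as a block (adjusted p 0.0653 to 0.0738).

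Gabra3, for the alpha3 subunit, measured 107, 99.9 and 126 in FBMet against 149.8, 139.9, 143 and 136 in FB, and 64.9, 51.8 and 72.9 in HBMet against 68.98, 87.7, 101 and 81.1 in HB. Both tumour-bearing groups lay at the lower end of their region, without overlap in forebrain. The change was -0.36 ± 0.13 (SE, adjusted p = 0.0447) in forebrain and -0.42 ± 0.13 (SE, adjusted p = 0.111) in hindbrain. The forebrain call was lost without FB replicates 1, 2, 3 and 4, FBMet replicates 1 and 2, HB replicate 4 or HBMet replicate 1 (adjusted p 0.0542 to 0.189). It was also lost with the scaling by the median of ratios, with no filter on low values, with quantile normalization and without mitochondrially encoded genes (adjusted p 0.0525 to 0.0930). The hindbrain difference was called without HB replicate 1 (adjusted p = 0.0238). Gabra2 (alpha2) was not called in either tumour comparison and was higher in forebrain by 0.63 ± 0.14 between FBMet and HBMet and 0.49 ± 0.12 between FB and HB.

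Gabrg3, for the gamma3 subunit, went against the alpha genes in forebrain. It measured 42.8, 41.7 and 44.4 in FBMet against 39.3, 33.7, 31.7 and 29.04 in FB rescaled RPKM. Its hindbrain levels were 10.2, 9.54 and 13.96 in HBMet against 11.5, 15.9, 17.7 and 14.1 in HB. All FBMet libraries were above all FB libraries and every forebrain library was above every hindbrain library. FBMet exceeded HBMet by 1.86 ± 0.15 (SE, adjusted p = 1.59e-07) and FB exceeded HB by 1.13 ± 0.13 (SE, adjusted p = 4.92e-06), but FBMet against FB was not called, at 0.36 ± 0.14 (SE, adjusted p = 0.0684). It was called without FB replicate 1, HB replicate 1 or HBMet replicate 3 (adjusted p 0.0337 to 0.0443) and with library weights, in a fit of only the groups compared, with a pseudocount of 5 and with voom (adjusted p 0.0208 to 0.0454).

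Gabrd, for the delta subunit of extrasynaptic receptors in cerebellar granule cells, thalamus and dentate gyrus, was called in none of the comparisons. It measured 39.8, 41.3 and 48.8 in FBMet against 43.8, 44.9, 53.01 and 51.8 in FB. Hindbrain libraries gave 39.4, 50.8 and 37.2 in HBMet against 53.5, 31.3, 19.6 and 39.6 in HB. The HB libraries alone covered the whole range of the other groups. The log2 difference was 0.03 ± 0.25 between FBMet and HBMet, 0.499 ± 0.22 between FB and HB, -0.16 ± 0.24 between FBMet and FB and 0.31 ± 0.24 between HBMet and HB, and FB against HB was called without HB replicate 1 (adjusted p = 0.00600) and with the scaling by the median of ratios (adjusted p = 0.0325).

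The remaining GABA-A receptor genes were Gabrb1, Gabrb2, Gabrg1, Gabre and Gabrq. Gabrb1 (beta1) was higher in forebrain by 0.63 ± 0.13 between FBMet and HBMet and by 0.301 ± 0.11 (SE, adjusted p = 0.0363) between FB and HB, where the groups overlapped and the call was lost without FB replicates 1 and 2 or HB replicates 1, 2 and 4 (adjusted p 0.0754 to 0.118) and with no filter on low values, in a fit of only the groups compared, with the tumour-bearing pairs as a block and without mitochondrially encoded genes (adjusted p 0.05003 to 0.0841). Gabrb2 (beta2), among the highest of the class at 144 to 185 in FBMet, 176 to 226 in FB, 143 to 169 in HBMet and 152 to 191 in HB, and Gabrg1 (gamma1) were called in no comparison, although Gabrb2 was called lower in FBMet against FB without FB replicate 4 or FBMet replicate 3 (adjusted p 0.0217 to 0.0489) and with library weights and with voom (adjusted p 0.00947 to 0.0471), and higher in FB against HB with the scaling by the median of ratios (adjusted p = 0.0336). The minor subunit genes Gabre (epsilon) and Gabrq (theta), at no more than 9.91 rescaled RPKM in any brain library, were lower in forebrain, Gabre by -0.33 ± 0.12 and -0.44 ± 0.105 and Gabrq by -1.01 ± 0.13 and -0.81 ± 0.11 in tumour-bearing and tumour-free brain. The call of Gabre between FBMet and HBMet was lost without FBMet replicates 1 and 2 or HBMet replicates 1 and 3 (adjusted p 0.0590 to 0.142) and with the scaling by the median of ratios, with no filter on low values and with quantile normalization (adjusted p 0.0572 to 0.114). Gabrq was called lower in FBMet against FB without FB replicate 4 or FBMet replicate 3 (adjusted p 0.0352 to 0.0375) and with library weights, with quantile normalization and with the tumour-bearing pairs as a block (adjusted p 0.0243 to 0.0454).

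Glycine receptor genes included the member with the largest regional step, Glra1, and 3 of the 4 fell in tumour-bearing forebrain. Glra1, for the alpha1 subunit of adult glycine receptors in brainstem and spinal cord, measured 0.754, 0.597 and 0.517 in FBMet against 2.11, 3.55, 1.89 and 2.34 in FB rescaled RPKM. Hindbrain tissue gave 38.3, 48.1 and 61.5 in HBMet against 51.5, 69.00, 78.2 and 50.4 in HB. Forebrain levels were a small fraction of hindbrain levels, FBMet libraries were all below FB libraries, and HBMet and HB overlapped. FBMet was below HBMet by -4.93 ± 0.200 (SE, adjusted p = 2.58e-10) and FB below HB by -4.18 ± 0.17 (SE, adjusted p = 2.90e-10). FBMet was below FB by -1.08 ± 0.19 (SE, adjusted p = 0.00114) and HBMet against HB gave -0.33 ± 0.19 (SE, adjusted p = 0.436). With a pseudocount of 5, which weighs low levels less, the forebrain tumour call was lost (adjusted p = 0.0542).

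Glra3, for the alpha3 subunit, measured 2.701, 2.58 and 3.42 in FBMet against 7.32, 5.43, 4.61 and 4.63 in FB, and 4.07, 2.99 and 4.37 in HBMet against 3.76, 5.51, 7.53 and 5.72 in HB. The 3 FBMet libraries lay below the 4 FB libraries, and the hindbrain groups overlapped. The change was -0.72 ± 0.18 (SE, adjusted p = 0.00988) in forebrain, lost without FBMet replicate 2 (adjusted p = 0.0532), and -0.44 ± 0.18 (SE, adjusted p = 0.269) in hindbrain. Glra3 was not called between regions, although it was lower in FBMet than in HBMet with library weights (adjusted p = 0.0408).

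Glrb, for the beta subunit that anchors glycine receptors to the scaffold protein gephyrin, measured 164, 151 and 203 in FBMet against 261, 224, 209 and 243 in FB. In hindbrain it measured 267, 244 and 265 in HBMet against 292, 245, 378 and 296 in HB. FBMet libraries were all below FB libraries, and HBMet libraries lay within the HB range or just under it. The change was -0.45 ± 0.13 (SE, adjusted p = 0.0184) in forebrain, lost without FBMet replicates 1 and 2 (adjusted p 0.0655 to 0.106) and with quantile normalization (adjusted p = 0.0552), and -0.21 ± 0.13 (SE, adjusted p = 0.473) in hindbrain. FBMet was below HBMet by -0.59 ± 0.14 (SE, adjusted p = 0.00259). FB was below HB by -0.36 ± 0.12 (SE, adjusted p = 0.0209), with overlapping libraries, and this call was lost without FB replicates 2 and 3 or HB replicate 3 (adjusted p 0.0505 to 0.0688) and with the scaling by the median of ratios (adjusted p = 0.0972).

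Glra2, for the alpha2 subunit of immature neurons, was not called with tumours, at -0.32 ± 0.16 (SE, adjusted p = 0.135) for FBMet over FB and -0.21 ± 0.16 for HBMet over HB, although FBMet against FB was called in a fit of only the groups compared (adjusted p = 0.0476). It was higher in FB than in HB by 0.46 ± 0.15 (SE, adjusted p = 0.0152), which was lost without HB replicate 1 (adjusted p = 0.0527), and FBMet against HBMet gave 0.35 ± 0.17 (SE, adjusted p = 0.105), which was called without HBMet replicate 3 (adjusted p = 0.0306) and with the scaling by the median of ratios and with quantile normalization (adjusted p 0.0468 to 0.0479). Among the 3 alpha genes, Glra1 made up 4.43 to 6.76% of the summed rescaled RPKM in FBMet, 10.6 to 19.5% in FB, 79.6 to 87.5% in HBMet and 79.6 to 85.7% in HB. Glra2 held the largest share in forebrain, 65.6 to 69.01% in FBMet and 50.6 to 56.6% in FB, and 7.07 to 11.96% in HBMet and 7.79 to 11.3% in HB.

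Marker genes of several cell types also differed between FBMet and FB, where 30.4% of all genes were called (14.4% higher and 16.0% lower). Of 9 marker genes of thalamic and hypothalamic neurons, 8 were called lower in FBMet than in FB, among them Pmch (-5.51), Hcrt (-3.87) and Avp (-3.55), and the summed level of the 9 was 177 to 203 in FBMet against 374 to 428 in FB. Of 9 markers of forebrain neurons, 2 were higher and 1 was lower, a share called near that of all genes. Their sums were 935 to 1174 in FBMet against 802 to 942 in FB. Of 5 endothelial markers 4 were higher, with sums of 73.6 to 124 in FBMet against 50.4 to 69.9 in FB. Of 10 general neuronal markers, 5 were lower and 1 was higher in FBMet, with sums of 5703 to 6795 in FBMet against 6423 to 6887 in FB. In hindbrain none of the 10 was called, beside 3.25% of all genes, with sums of 5114 to 5871 in HBMet against 5985 to 7070.3 in HB. All 8 markers of microglia and macrophages were called higher with tumours in both regions, beside 14.4% of all genes in forebrain and 2.92% in hindbrain. Their sum was 384 to 489 in FBMet against 156 to 168 in FB, and 264 to 337 in HBMet against 97.97 to 139 in HB. The part of these differences in tissue content in the changes of Gabra3, Gabra4, Gabra5, Glra1, Glra3, Glrb and Grik1 was not tested.

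In hindbrain, some receptor genes had the same highest and lowest HB libraries as cerebellar markers, and not only genes typical of cerebellum. Pcp2, a Purkinje cell gene, measured 324, 373 and 295 in HBMet, within the range of 414, 235, 128 and 269 in HB. Cbln3, a granule cell gene, measured 347, 169, 115 and 197 in HB. HB replicate 1 was the highest and replicate 3 the lowest of the 4 HB libraries for both markers. The same held for Gria4, Grm4, Gabrd and Grin2c, and also for Gria1, Grik3 and Gabrb2. The order was the other way for Grin2b, Grm5, Gabra3, Gabra5, Gabrg3, Glra2 and Glra3, with replicate 3 highest and replicate 1 lowest. Over the 36 genes, HB replicate 3 was the highest of the 4 for 16 and the lowest for 11, and HB replicate 1 was the highest for 8 and the lowest for 13. The sum of 11 cerebellar and hindbrain markers was 1062 to 1502 in HBMet against 639 to 1599 in HB. None of the 11 was called, beside 3.25% of all genes.

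**Figure D5:**
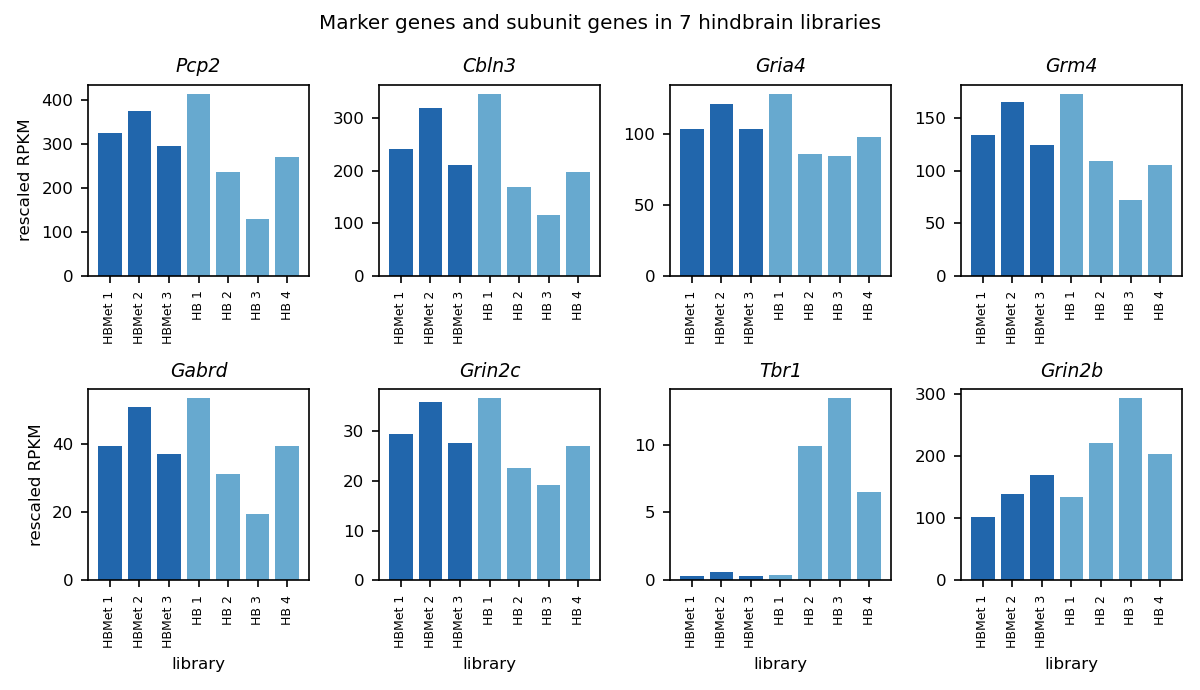
Bars give the rescaled RPKM of 8 genes in the 3 HBMet libraries (dark blue) and the 4 HB libraries (light blue), on linear axes from 0. HB replicate 1 has the tallest HB bar for the cerebellar markers Pcp2 and Cbln3 and for the receptor genes Gria4, Grm4, Gabrd and Grin2c. HB replicate 3 has it for Tbr1, 1 of 9 forebrain markers, and for Grin2b. The summed level of the 9 markers, not drawn here, was lowest of the HB libraries in replicate 3, at 127.

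Genes for proteins that work with these receptors were counted beside the 20.2% of all genes called higher and 32.5% called lower in FB than in HB. Of 13 genes for AMPA receptor auxiliary proteins, 9 were higher and 3 lower in FB than in HB, led by Cacng3 at 2.07 ± 0.16 and Cnih2 at 1.95 ± 0.12 among those higher and by Shisa6 at -1.67 ± 0.18 and Cacng2, the stargazin gene, at -0.76 ± 0.06 among those lower. Of 18 excitatory postsynaptic scaffold genes, 14 were higher and 2 lower, with Dlgap2 at 2.03 ± 0.15 against Homer3 at -3.46 ± 0.23 and Grip2 at -0.66 ± 0.097. The kainate receptor partner Neto1 was higher in FB by 1.85 ± 0.16, and Neto2 was not called. Of 8 inhibitory scaffold genes, 2 were higher and 1 was lower, a share called of 37.5% beside 52.8% of all genes, with Gabarapl1 at 0.41 ± 0.09 against Iqsec3 at -0.71 ± 0.08.

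Of 13 genes for transmitter transporters, 3 were higher and 8 lower in FB than in HB, beside 20.2% of all genes higher and 32.5% lower, a split that was nearly even with the scaling by the median of ratios. Slc6a5, the neuronal glycine transporter, averaged 0.1305 rescaled RPKM in FB and 80.3 in HB, a change of -6.14 ± 0.13, next to the regional step of Glra1. Slc1a6, a glutamate transporter of Purkinje cells, changed by -2.43 ± 0.17, and Slc17a7, the vesicular glutamate transporter of cortex, by 1.97 ± 0.098. Of 10 genes for synthesis and breakdown of the transmitters, 1 was higher and 4 were lower in FB, a share called of 50.0%, near that of all genes, with Gldc at 0.37 ± 0.14 against Abat at -0.61 ± 0.06 and Gls2 at -0.61 ± 0.08.

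In FBMet against FB, the share of partner genes called was 38.5% for AMPA auxiliary proteins, 27.8% for excitatory scaffolds, 25.0% for inhibitory scaffolds and 30.8% for transporters, near the 30.4% of all genes for most. Here 2 of 13 AMPA auxiliary genes were higher (Shisa7 at 0.53 ± 0.16 and Cacng4 at 0.29 ± 0.104) and 3 lower, among them Cnih3 at -0.63 ± 0.15 and Cnih2 at -0.397 ± 0.13. Of 18 excitatory scaffold genes 3 were higher, led by Shank2 at 0.45 ± 0.16 and Shank1 at 0.42 ± 0.11, and 2 were lower, Pick1 at -0.27 ± 0.07 and Dlg3 at -0.22 ± 0.07. Of 8 inhibitory scaffold genes 2 were lower, Gabarapl1 at -0.35 ± 0.09 and Gphn, for gephyrin, at -0.201 ± 0.07, and none of the 10 synthesis genes was called. Among 13 transporter genes, the astrocyte glutamate transporter genes Slc1a2 and Slc1a3 were higher by 0.76 ± 0.12 and 0.42 ± 0.14. Slc17a6, the vesicular glutamate transporter of thalamus, hypothalamus and brainstem, was lower by -1.81 ± 0.18 (SE, adjusted p = 1.78e-05) and Slc17a7 by -0.35 ± 0.11 (SE, adjusted p = 0.0241). In HBMet against HB the only call in these lists was Slc1a1, a neuronal glutamate transporter gene, at -0.37 ± 0.09 (SE, adjusted p = 0.0259). Of all genes tested, 3.25% were called in that comparison, and 0.33% of all genes tested were called lower in HBMet.

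Outside the brain, the host tissue of subcutaneous tumours held little of the receptor genes. The SQ libraries had 2446581 to 3984319 mouse reads, and the highest members there were Gabra3 at 9.05 to 17.5, Gria3 at 4.58 to 8.78 and Grik5 at 1.94 to 6.86 rescaled RPKM. The monolayer, which holds no mouse cells, gave 7297 to 16524 reads assigned to mouse genes, of which the 36 genes took 5, 49 and 9. In 2 of the 3 monolayer libraries all of these reads lay on Grik4, and in replicate 2 they were spread over 20 members, with 17 on Grik4 and no more than 5 on any other. Where these reads came from was not tested.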

How the data were processed

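RNA of 21 libraries was sequenced. Total RNA came from an extraction kit made for fatty tissue, and libraries followed standard Illumina steps, per the labels' protocols. Reads were mapped to mm10 and hg38 (GRCm38 and GRCh38), per the submitters' processing notes, and aligner and counter were not given in the sources used here. The deposited mouse and human tables hold RPKM computed by the authors.

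Mouse RPKM was rescaled to a sum of 1000000 per library, and log2(value + 1) was tested. A gene was fitted where 3 or more of 14 brain libraries reached 1, using limma (trend and robust options) in 1 model of FBMet, FB, HBMet and HB, without a block. Two-sided p-values were adjusted with the method of Benjamini and Hochberg over 15777 genes in each of 5 comparisons, the last being the difference between the tumour changes of forebrain and hindbrain. The members, gene lists and tests were chosen with earlier results of these data known. Genes named with all libraries were up to 4 calls in each direction with the largest change, groups that did not overlap and a higher group averaging 2 or more, and Grin1, Gria2, Glrb, Grin2b, Grin2c, Gabrd and Glra1. Grik1 and Gabra3 were given in full after their values were seen.

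RPKM values of a gene were whole multiples of 1 step per library, which gave back the reads (100% of values whole within 0.02, over 25366 genes). They served for depth, implied lengths and an alternative with voom. The recovery and limma were tested on simulated data, where false calls exceeded the threshold between FB and HB, the shallower libraries, and not in the other comparisons of groups. On the deposited data, voom and library weights changed no member's call between FB and HB. Neither alternative was run on the simulated data, so the unchanged calls cannot show whether false calls are among them. Counting error alone limits precision little at these depths where a gene has many reads. It weighs more on the lowest members, such as Glra1 (56 to 63 reads in FBMet and 59 to 95 in FB) and Gabre (63 to 75 in FB). The chi-square divided by its degrees of freedom was 10.1 to 60.3 between replicates, so none were repeats of 1 library.

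Same-number residuals of FBMet and HBMet correlated at 0.238 to 0.437, against at most -0.0397 between other numbers, so these were taken as pairs in an added alternative, chosen after seeing the data. FB and HB (-0.0577 to 0.365) were not. Residuals cancel out within each group, so where same-number values are positive the others are negative on average by construction. The labels do not state which libraries share an animal. Where a symbol stood on 2 rows (Itgam), the row with the higher sum was used. Alternatives were other scalings, filters and pseudocounts, library weights, voom, blocks, only the groups compared and leaving out libraries. Neither sequences nor positions are given for the mouse genes. Python 3.11.15 with SciPy 1.17.1, pandas 2.3.3, NumPy 2.4.6 and Matplotlib 3.10.9 was used beside R 4.3.3 with limma 3.58.1 and the data.table package (version 1.17.8).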

Additional observations from a re-analysis of the deposited data

Results flagged for a closer look

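In the tumour-free groups, libraries far from the others were sought in 72 pairs of a gene and a group of 4 libraries (FB or HB), where chance alone marks about 1 in 20. Grik1 in FB had 1 low library, replicate 3 at 7.88 rescaled RPKM, with the other FB libraries at 9.57 to 9.59. Grm2 in HB had 1 high library, replicate 2 at 13.95, with the others at 9.62 to 10.1. Gabrb1 in HB had 1 high library, replicate 3 at 34.1, with the others at 26.9 to 27.7. Grm3 was marked because its change with tumour differed between the regions, by 0.52 on the log2 scale (higher in 3 of 3 FBMet libraries than in any FB library, and lower in 3 of 3 HBMet libraries than in any HB library), with limma's adjusted p = 0.0427.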

How the results depend on the processing

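The counts of called members between regions were within 1.5 times of 28 under every alternative run. The tumour comparisons moved more, and the cause was not tested unless the alternative itself removes libraries. In FBMet against FB, 15 members were called with library weights (9 without), and leaving out 1 library gave 5 to 12 members and 2353 to 4996 genes in all. In HBMet against HB (512 genes and 0 members), library weights gave 824 genes, the stricter filter 294, and leaving out replicate 1 of FB and of HB together 853 genes and 6 members; leaving out 1 library gave 291 to 804 genes and 0 to 3 members. For the difference between the tumour changes (72 genes and 1 member), library weights gave 660 genes and 4 members, no filter 30 and 0, quantile normalization 129 genes, voom 174, a random block of forebrain and hindbrain pairs 160, and leaving out replicate 1 of both tumour-free groups 631 and 4. Leaving out 1 library gave 12 to 343 genes and 0 to 3 members there.

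With the replicate number as a fixed block, the difference had 0 called members (Grm3 lost), and FBMet against FB had 8 (Gabra4 lost, adjusted p = 0.0738). With the tumour-bearing pairs as a replicate block it also had 0, HBMet against HB had 1 (Gabra3), Gabrb1 lost its call between FB and HB, Gabrq gained one between FBMet and FB, and no other member's call changed.

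Over the values of named genes and the alternatives run, 3 values turned sign, all of them uncalled. Grin1 in FBMet against FB (-0.01) became 0.049997 with quantile normalization and 0.0116 without mitochondrially encoded genes, and ranged from -0.058 to 0.0357 on leaving out 1 library. Gabrd in FBMet against HBMet (0.03) ranged from -0.0537 to 0.17 on leaving out 1 library. The difference between tumour changes of Grin2c (0.02) became -0.0066 with RPKM as deposited, -0.00199 with a pseudocount of 5, -0.00101 with voom and -0.20 without replicate 1 of FB and of HB, and ranged from -0.14 to 0.16 on leaving out 1 library. Of the values of single genes recomputed, 2409 kept direction and side of the threshold, 72 lost a call, 14 gained one and 18 turned sign. The lowest member, Glra1 in forebrain, rests on 56 to 63 reads in FBMet and 59 to 95 in FB.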
